A study of Mus musculus with 8 samples.

Results

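Cells carrying a major satellite vector were compared with cells carrying a control vector, on all 8 of the 8 arrays of the study. The cells were NMuMG, an established line of mouse mammary gland epithelium, and per the labels both sets were stably transfected. The 4 groups of 2 arrays were Control at 0 h, Control after 8 h of TGFbeta, Major at 0 h and Major after 8 h of TGFbeta. Each array title carried 1 of 2 codes, called here replicate numbers 1 and 2, and each code was shared by 1 array of every group. The members of the comparison were therefore 4 pairs, each a Major array set against the Control array of the same hour and the same replicate number. Every probeset of the array was followed, 34760 in all, of which 21640 had 1 gene symbol, 1321 had several and 11799 had none in the probe table. The labels did not give the number of clones or cultures behind an array. The p-values therefore measure the spread between these arrays, and a difference between the vectors cannot be told apart from one between the transfected cell populations. The level of major satellite RNA itself was not analysed here.

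Major satellite is the tandem repeat that fills the pericentromeric heterochromatin of mouse chromosomes. It is packed in nucleosomes with trimethylated histone H3 lysine 9, which HP1 proteins bind, and it is transcribed at times of chromatin change. The mouse 2-cell embryo is known for a burst of transcription from genes that are silent in most later cells, among them Zscan4, Zfp352, the Usp17-like and Tdpoz genes and many Pramel genes. Most of these lie in arrays of near-identical copies, so that 1 probeset of a gene array often reports on several genes at once.

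The data showed a short list of transcripts lower with the major satellite vector in every pair, and none higher by the same measure over the 4 pairs. A probeset was said to have moved when its 4 pair differences had the same sign and each was at least 1.5-fold. By this description 60 of 34760 probesets (0.173%) were lower in Major in all 4 pairs and 0 (0%) were higher. Their median difference was -1.77 on the log2 scale, 23 of them were over 4-fold lower, 32 were 2-fold to 4-fold lower and 5 less than 2-fold, and 43 were at least 2-fold lower in each pair. In limma, with the pair as a block, 31 probesets (0.0892%) fell at an adjusted p under 0.05 and 0 (0%) rose, while 1859 were at an unadjusted p under 0.05 in either direction. All 31 were among the 60. With any 1 of the 4 pairs left out, 63 to 79 probesets were lower and 0 to 7 higher in each pair that remained, and with the pairs of 1 replicate number alone 79 or 200 were lower and 59 or 39 higher. In these bulk RNA samples, fewer cells that express a gene and less of its RNA per cell cannot be told apart.

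The count of 31 rested on all 4 pairs and on the pairing, and the 4 pairs came from only 2 replicate numbers. It was 4 to 7 after any 1 of the 8 arrays was left out together with its partner, 6 with the pairs of replicate 1 alone, 48 with those of replicate 2 alone (47 lower and 1 higher) and 3 without the block. Probesets 10582545, 10582549 and 10456984 were the 3 that also passed without the block. With the 0 h and 8 h arrays of a replicate number averaged first, which leaves 2 pairs, 5 fell, 4 of them among the 31. Of 18 other settings each of the 60 had a value in 16 to 18, since some settings left out probesets with several symbols, with none or with low values. Each stayed lower in Major in every setting that gave it a value, and the smallest difference was -0.63. Since the 60 were chosen for falling in each pair, most settings could not change the sign. Only centring arrays on their median and quantile normalization altered the values themselves.

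The promoters of the genes listed by these probesets are shown first, since most of the genes belong to families that are told apart by sequence. Every listed gene was counted, Kcnma1 included, and a listing does not show that the gene itself fell. The 60 probesets listed 69 genes, 64 of them protein coding. Of these 64, 55 lay in 11 clusters of neighbours at most 10 places apart in the order of protein-coding genes. Of the 60 probesets, 24 list several genes, often neighbouring copies, so that 1 probeset can make a cluster by itself. The share in clusters over all genes was not counted. RefSeq promoters of build GRCm38.p6 were at hand for 50 of the 69 genes. A search for the 12-base run held by the most genes within the 250 bases before the start, extended while the same genes kept it, gave 1 run of 14 bases in 14 of the 50 genes (28%). The same run on the same strand stood in 37 of all 32851 promoters (0.113%), those of the 14 genes included. It is set in capitals in 60-base windows of 6 of these genes, each written in the direction of its gene.
Gm4340: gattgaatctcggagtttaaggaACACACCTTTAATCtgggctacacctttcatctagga
Sp110: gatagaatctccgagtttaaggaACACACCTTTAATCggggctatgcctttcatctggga
Gm4567: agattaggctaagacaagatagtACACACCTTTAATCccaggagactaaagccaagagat
Spopfm2: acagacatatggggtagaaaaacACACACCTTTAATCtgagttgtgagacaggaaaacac
Tdpoz1: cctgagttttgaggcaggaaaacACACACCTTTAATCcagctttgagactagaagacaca
Zfp352: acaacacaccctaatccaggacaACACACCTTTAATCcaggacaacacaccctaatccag
In GRCm38.p6 these windows lie at chr10:104193896-104193955 on the plus strand for Gm4340, chr1:85604028-85604087 on the minus strand for Sp110 and chr7:22719831-22719890 on the minus strand for Gm4567. Those of Spopfm2 (chr3:94178294-94178353) and Tdpoz1 (chr3:93676374-93676433) are on the minus strand, and that of Zfp352 (chr4:90218623-90218682) is on the plus strand. The run began 100 to 174 bases before the start of transcription in the 14 genes. It was found in these promoters and was not set beforehand, and a match describes letters, not a binding site. Gm4340 and 5 of its neighbouring copies were 99.6% to 100% identical over the 250 bases. Among the genes shown, Tdpoz1 on a probeset of its own differed by 0.01 between vectors. The Sp110 group had 5 probesets, all lower on average with a median of -0.72, of which 1 moved in all 4 pairs and 0 passed.

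The Zscan4 promoters lacked that run and shared another stretch. A search on both strands for the type of motif bound by double homeodomain proteins met 4 of the 50 genes (8%), which were the 4 Zscan4 genes in the table, and 58 of all 32851 promoters (0.177%). The letters met, TGATAGAATCA in all 4, stood on either strand in 5 of all promoters (0.0152%) and are in capitals. They were read from the 4 Zscan4 promoters, which both counts over all promoters include.
Zscan4c: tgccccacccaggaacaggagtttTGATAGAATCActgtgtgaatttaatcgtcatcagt
Zscan4d: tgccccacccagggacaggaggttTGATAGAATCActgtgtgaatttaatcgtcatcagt
The windows lie at chr7:11005607-11005666 on the plus strand for Zscan4c and at chr7:11166238-11166297 on the minus strand for Zscan4d. The homeodomain core GGATTA, on either strand, stood in 21 of the 50 genes (42%) and in 6.25% of all promoters, and its complement overlaps the 14-base run where a C follows it. TATAAA on the gene's strand stood in 19 of the 50 (38%), among them Usp17l and Pramel genes, and in 7.59% of all promoters. The genes are not independent examples, since copies of a family share these letters by descent.

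The largest differences were those of 2 probesets. Probeset 10582545 read 14.25 and 14.24 at 0 h and 14.24 and 14.14 at 8 h in Control (log2 values, replicates 1 and 2). In Major it read 6.98 and 8.06 at 0 h and 6.68 and 6.61 at 8 h. All 4 Control arrays stood above all 4 Major arrays, and the mean fell by 7.13 ± 0.24 (SE, 4 pairs, limma adjusted p = 0.00118), a 140.5-fold difference. The probe table lists it as Kcnma1, a potassium channel gene, from 4 accessions, 0 of them RefSeq transcripts. The other probeset of Kcnma1, 10418053, with 17 RefSeq accessions, differed by 0.05 ± 0.06, so that the fall is given here to the probeset and not to the channel gene. Probeset 10582549, with no listed gene, read 13.91, 13.57, 13.86 and 13.39 on the Control arrays (0 h replicates 1 and 2, then 8 h replicates 1 and 2) and 7.06, 7.85, 7.15 and 7.12 on the Major arrays. It fell by 6.39 ± 0.19 (limma adjusted p = 0.00115), or 83.7-fold.

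Another probeset with no listed gene, 10456984, read 8.87, 9.08, 8.58 and 8.69 in Control and 5.91, 6.10, 5.82 and 5.40 in Major, in the same order of arrays. Its 4 pair differences lay between -2.76 and -3.29, and the mean difference was -3.00 ± 0.09 (limma adjusted p = 0.00115). Probeset 10563812, also without a listed gene, fell by 3.05 ± 0.24 (limma adjusted p = 0.0248). Of the 60 probesets, 16 had no listed gene, with a median of -1.57, and 10 of these passed. They are given by number only, since the probe table names nothing for them.

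**Figure D1:**
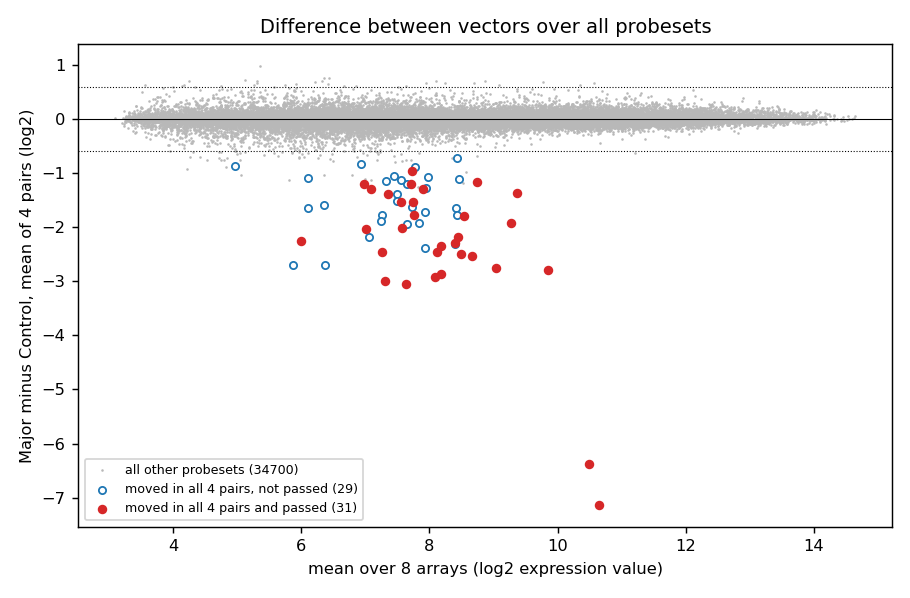
Each point is 1 of the 34760 probesets, with its mean over the 8 arrays on the x axis and the mean Major minus Control difference of the 4 pairs on the y axis, both in log2 units. Red points are the 31 that moved in all 4 pairs and passed in limma, open blue circles the 29 that moved without passing, grey points the other 34700, and dotted lines mark 1.5-fold. The marked probesets all lie below 0, the lowest at -7.13 and -6.39, and the grey points run from -1.25 to 0.98.

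Zscan4 genes encode zinc finger and SCAN domain proteins known for telomere maintenance in 2-cell embryos and in rare embryonic stem cells. All 3 Zscan4 probesets of the array, each listing the same 5 copies, moved in all 4 pairs, with a median of -1.94. Probeset 10559978 read 10.91, 11.78, 10.85 and 11.48 in Control and 8.73, 8.63, 8.44 and 8.02 in Major. Every Control array was above every Major array, and the mean fell by 2.80 ± 0.22 (limma adjusted p = 0.0248). The other 2 differed by -1.94 ± 0.21 and -1.72 ± 0.19 and did not pass (limma adjusted p = 0.0772 and 0.087). Which of the 5 copies gave the signal cannot be read from these probesets.

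Zfp352 encodes a zinc finger protein of the early embryo. It read 8.67, 10.13, 8.62 and 10.02 in Control and 6.88, 7.65, 6.64 and 6.90 in Major. The lowest Control array was 8.62 and the highest Major array 7.65, and the mean fell by 2.34 ± 0.22 (limma adjusted p = 0.0458). In Control, the 2 arrays of replicate 2 were the high ones. Tmem92, which encodes a transmembrane protein, read 7.30, 7.73, 7.44 and 7.85 in Control and 6.29, 6.35, 6.30 and 6.58 in Major. Its groups did not overlap either, and the mean difference was -1.20 ± 0.08 (limma adjusted p = 0.0248).

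Pramel genes encode leucine-rich repeat proteins of the PRAME family, expressed in germ cells and early embryos. Of 40 Pramel probesets on the array, 11 moved in all 4 pairs, 6 passed, and 16 had 1 sign in all 4 pairs, lower in every case. Over all probesets of the array, 15.1% had 1 sign in all 4 pairs, in either direction. The median of the 11 was -1.62 and that of all 40 was -0.13, so that the falls belonged to part of the family. Probeset 10510076, which lists 6 genes including Pramel31, Pramel20 and Pramel16, read 9.06, 10.26, 9.04 and 9.81 in Control and 6.40, 7.30, 6.41 and 6.41 in Major. It fell by 2.91 ± 0.14 (limma adjusted p = 0.00654), with a smallest pair difference of -2.63. Pramel20 on a probeset of its own fell by 1.54 ± 0.11 (limma adjusted p = 0.0248), and its Control values of 7.74 to 9.08 lay above its Major values of 6.49 to 7.18. Pramel6, a member better known from embryonic stem cells, was the highest of the 2-cell list described further on, at 0.14.

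Gm7982, a predicted gene whose neighbours in the RefSeq annotation are Pramel genes, had 7 probesets, of which 6 moved in all 4 pairs and 5 passed. Probeset 10522585 read 9.54, 10.17, 9.24 and 9.53 in Control and 7.11, 6.66, 6.85 and 6.38 in Major, a difference of -2.87 ± 0.20 (limma adjusted p = 0.0248). The 7 ran from -2.87 to -0.30, with a median of -2.30. All 7 were lower in Major on average.

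Tdpoz and Spopfm genes encode proteins with TRAF and POZ domains, relatives of the ubiquitin ligase adaptor Spop. Of their 9 probesets, 4 moved in all 4 pairs, 2 passed, and 8 were lower in every pair. The share of all probesets with 1 sign in every pair was 15.1%. Spopfm2 read 9.12, 9.50, 9.22 and 9.89 in Control and 7.75, 7.53, 7.63 and 7.64 in Major. The 4 Major arrays lay close together, under the lowest Control array, and the mean fell by 1.79 ± 0.15 (limma adjusted p = 0.0293). Tdpoz3 differed by -1.58 ± 0.21 and did not pass (limma adjusted p = 0.151). Tdpoz1 on a probeset of its own differed by 0.01, while a probeset shared by Tdpoz7, Tdpoz9, Tdpoz5 and Tdpoz1 fell by 1.53 ± 0.14 (limma adjusted p = 0.0397). A second probeset listing the same 4 genes differed by -0.15 ± 0.08 and did not pass (limma adjusted p = 0.865), so the 2 disagree.

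Usp17l genes encode deubiquitinating enzymes. Of 5 probesets, 4 moved in all 4 pairs and all 5 were lower in every pair (15.1% of all probesets had 1 sign in every pair), yet 0 passed. Usp17lc was 1.65 ± 0.21 lower (limma adjusted p = 0.131), and its Control values of 8.66, 9.74, 8.81 and 9.72 were above its Major values of 7.55, 7.84, 7.55 and 7.41. Usp17ld was 0.89 ± 0.09 lower (limma adjusted p = 0.0518), with overlapping groups. Usp17la, 0.82 ± 0.14 lower, missed the 1.5-fold limit in 1 pair at -0.56. The pair differences of these 4 in replicate 2 at 0 h had a median of -1.67, against -0.95 in replicate 1.

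Other gene groups of the set were also multi-copy. A probeset for the 9 genes of the Gm4340 group fell by 2.29 ± 0.20 (limma adjusted p = 0.0337), while another that lists the same genes among others, 10366070, differed by -1.19 ± 0.22 and did not pass (limma adjusted p = 0.473). A probeset for Gm4027 and BB287469 fell by 2.26 ± 0.12 (limma adjusted p = 0.0134), but it was the 1 of 4 probesets listing either gene that moved in all 4 pairs, and the median of the 4 was -0.65. Of 4 probesets for the Gm4567 group, 3 moved in all 4 pairs and 1 passed, at -2.46 ± 0.22 (limma adjusted p = 0.043). Of 4 for the Gm428 group, 3 moved and 0 passed. A530040E14Rik fell by 1.38 ± 0.11 on 1 probeset (limma adjusted p = 0.0248), and its 3 probesets had a median of -1.28. Gm5662 on the probeset that lists it alone had Control values of 6.81, 9.03, 6.57 and 8.46 and Major values of 4.61, 5.34, 4.89 and 5.26. Its difference of -2.69 ± 0.33 did not pass (limma adjusted p = 0.126), and Control replicate 2 stood far above Control replicate 1 at both hours. Gm5662 was listed by 4 probesets in all, of which this 1 moved in all 4 pairs; the 4 ran from -2.69 to -0.29, with a median of -0.65.

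**Figure D2:**
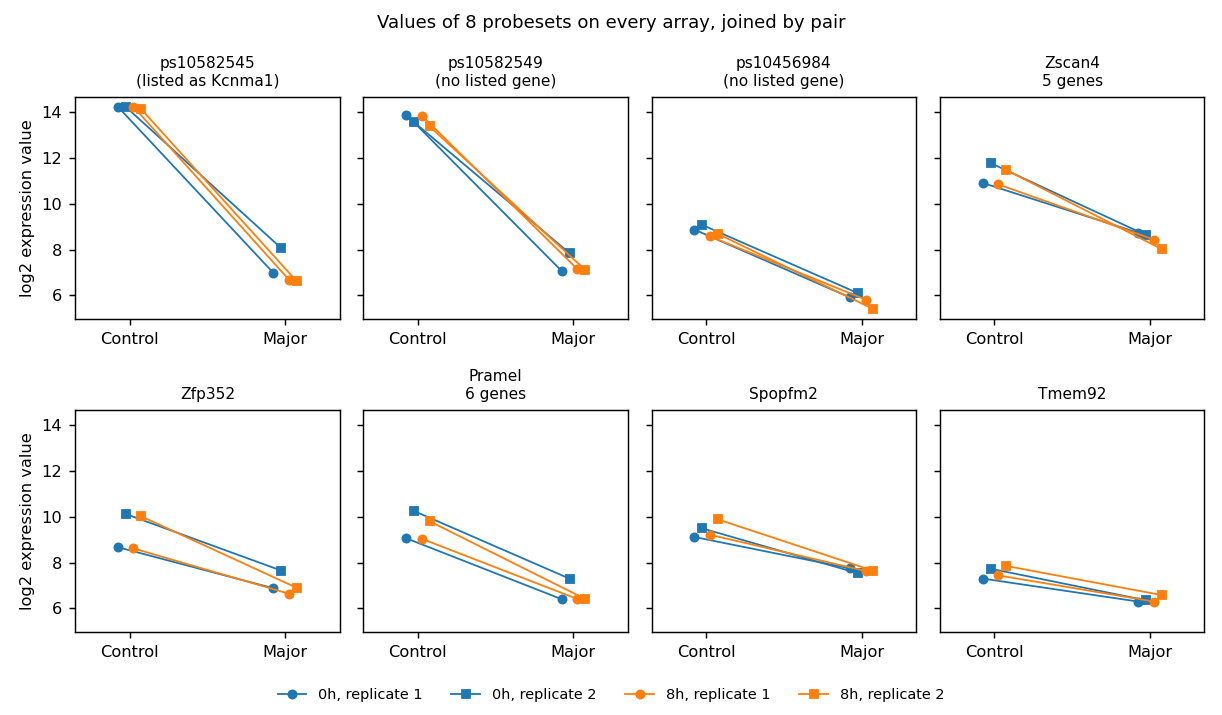
Each panel shows the log2 expression value of 1 probeset on all 8 arrays, with lines joining the Control and Major arrays of a pair; blue is 0 h, orange 8 h of TGFbeta, circles replicate 1 and squares replicate 2. Every line falls from Control to Major. The first pair of panels falls from about 14 to between 6.61 and 8.06, and in Zscan4, Zfp352 and Pramel the Control squares stand above the Control circles.

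Obox genes, homeobox genes of the oocyte and early embryo, stood at the edge of the set. Of 8 Obox probesets, 0 moved in all 4 pairs and 0 passed, and 6 were lower on average. The median of the 8 was -0.17, and that of all probesets was 0.00, with about as many lower as higher. Probeset 10560160, which lists Obox5, Obox2, Obox3, Obox7 and Obox1, was 1.11 ± 0.15 lower (limma adjusted p = 0.173) and missed the limit in 1 pair at -0.57. Just inside the limit, the smallest pair differences were -0.61 for probeset 10535994, which lists Pramel50, BC080696, Pramel37 and Pramel39, for Usp17ld and for BC147527, a gene of the 2-cell Tcstv cluster. Arg2, an arginase gene, differed by -0.03. Outside the 60, 67 probesets had a mean at least 1.5-fold lower and 32 a mean at least 1.5-fold higher, without reaching that size in each pair.

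Among the rises, 0 reached the limit in every pair. Probeset 10344336, with no listed gene, was higher by 0.54 ± 0.06 (limma adjusted p = 0.0618), between 0.49 and 0.62 in each pair. Its values were low, 4.25 to 5.19 in Control and 4.78 to 5.67 in Major, below the median of every array. Klb, which encodes the FGF co-receptor beta-klotho, read 7.42, 7.75, 6.82 and 6.90 in Control and 8.07, 8.24, 7.55 and 7.36 in Major. It was higher in each pair, by 0.58 ± 0.07 on average, and did not pass (limma adjusted p = 0.111). Sprr1b, a precursor of the cornified envelope, was 0.54 ± 0.07 higher (limma adjusted p = 0.126), and Slc9a2, a sodium/proton exchanger, 0.66 ± 0.10 higher (limma adjusted p = 0.259). Tspan6, a tetraspanin, and Cavin3, a component of caveolae, were higher by 0.44 and 0.38. They are among the rises nearest to the limit, beside others with no listed gene, and were singled out after their values had been seen. When the 21640 probesets with 1 symbol were tested alone, Klb, Sprr1b, Slc9a2, Tspan6 and Cavin3 passed as rises beside 28 falls (limma adjusted p = 0.00885 to 0.0452 for the 5).

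The difference between vectors was next read at each hour. In untreated cells 5 probesets (0.0144%) fell and 0 rose, with 1234 at an unadjusted p under 0.05, and after 8 h of TGFbeta 5 (0.0144%) fell and 0 rose, with 1873 at an unadjusted p under 0.05. Probesets 10582545, 10582549 and 10456984 and the probeset of Gm4027 and BB287469 passed at both. The fifth at 8 h was a Pramel probeset, 10536155, and the fifth at 0 h was a Gm7982 probeset, 10536143, which fell by 2.80 ± 0.19 (limma adjusted p = 0.0424) and at 8 h differed by -1.81 ± 0.19 (limma adjusted p = 0.151). Without 1 of the 8 arrays, 0 to 7 probesets passed at 0 h and 0 to 4 at 8 h. The test of the difference itself, 8 h minus 0 h, called 0 probesets (0%) in limma, with a smallest adjusted p of 0.999 and 1352 at an unadjusted p under 0.05.

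With TGFbeta itself the 60 probesets changed little at the median, and 45 of them were lower. Their median change between untreated and 8 h arrays was -0.12, from -0.63 to 0.34, and 3 of them passed. Over all probesets the median change was 0.01. For comparison, 4306 of all 34760 probesets (12.4%) passed for TGFbeta under the same kind of paired fit, 1889 higher and 2417 lower. In the same description by pairs, 442 probesets rose and 407 fell with TGFbeta at least 1.5-fold in all 4 pairs. The share with 1 sign in all 4 pairs was 34.9% for TGFbeta and 15.1% for the vectors.

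**Figure D3:**
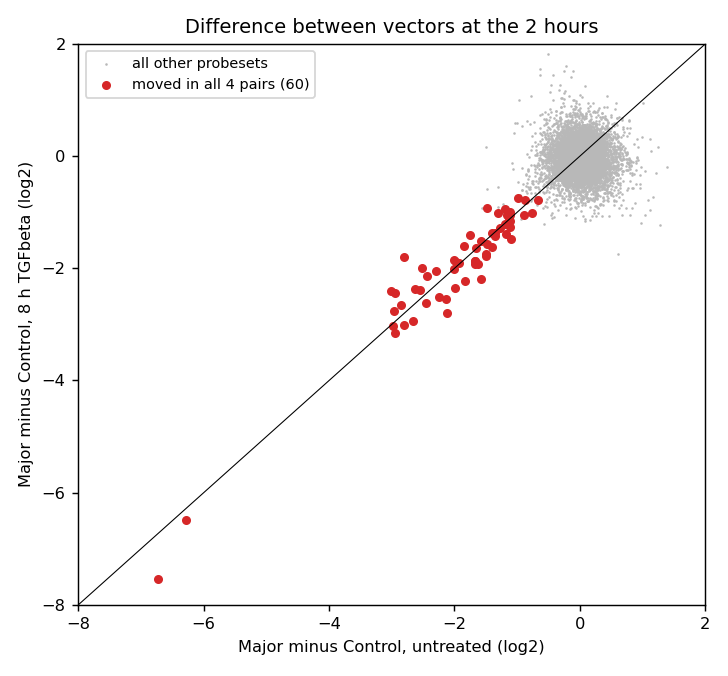
The Major minus Control difference of each probeset in untreated cells (x axis) is set against that after 8 h of TGFbeta (y axis), both in log2 units, with a line of equality. The 60 probesets that moved in all 4 pairs (red) lie between -0.67 and -6.72 on the x axis, and the others (grey) form a cloud around 0; the red points had to be below 0 on both axes by the way they were chosen.

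The falls were larger in 1 replicate than in the other. In replicate 2, 52 of the 60 fell further than in replicate 1 at 0 h, and 50 of the 60 at 8 h. The median falls at 0 h were -1.27 in replicate 1 and -2.09 in replicate 2, and at 8 h they were -1.48 and -2.17. The Control arrays showed the larger gap between replicates. The difference of replicate 2 minus replicate 1, taken per probeset, had a median over the 60 of 0.71 in Control and 0.10 in Major. The Major values were the lower ones, where such gaps may be understated. Over all probesets the same medians of differences were -0.02 and -0.01. The exceptions included probeset 10582545, whose fall at 0 h was 7.27 in replicate 1 and 6.18 in replicate 2. Replicate 2 arrays also had higher medians over all probesets (7.88 to 7.92) than replicate 1 arrays (7.72 to 7.76). These are medians of arrays, not of differences per probeset. Each pair joined arrays of the same replicate number. With arrays centred on their median, 59 probesets were lower in all 4 pairs and 35 passed. With quantile normalization these were 59 and 29. The cause of the gap between replicates was not tested.

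**Figure D4:**
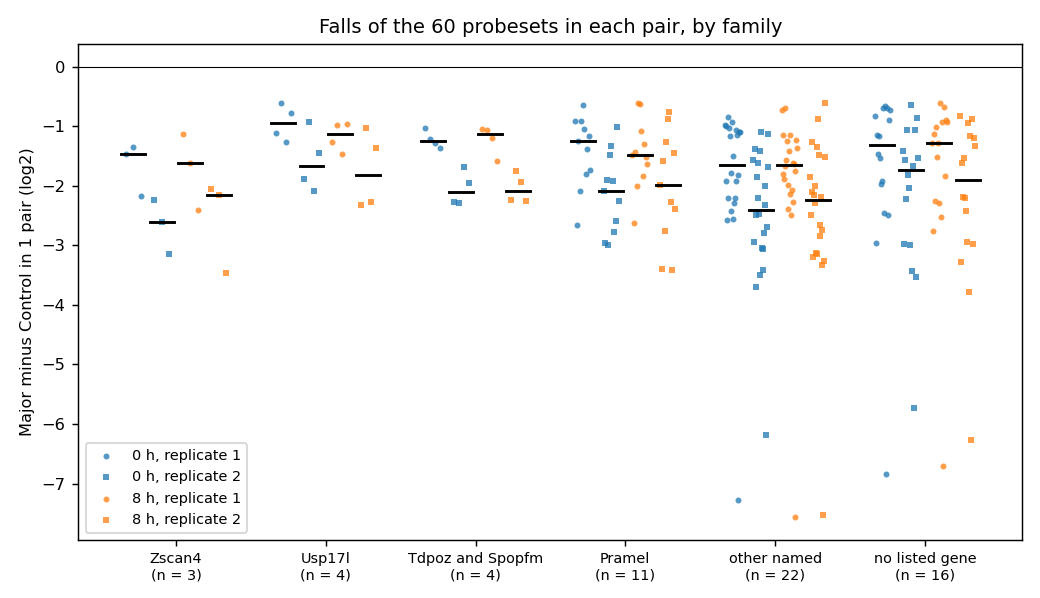
Points are the Major minus Control differences (log2) of the 60 probesets in each of the 4 pairs, grouped by gene family on the x axis; blue is 0 h, orange 8 h, circles replicate 1, squares replicate 2, and black bars are medians. In each family the squares' medians lie lower than the circles' medians of the same hour, for example -2.61 against -1.46 for the 3 Zscan4 probesets at 0 h.

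It was then asked which pathways stayed level. A probeset was called level when the 95% confidence interval of its mean difference lay within 1.5-fold up and down, since a p that misses the threshold does not show that values are alike. By that measure 93.5% of all 34760 probesets were level, and 69.47% in the fit without the block. With 1 probeset per gene, the one with the highest mean, 99% of 19937 genes were level, 6 (0.0301%) fell and 0 (0%) rose. Of 41 gene lists, 39 had 0 members that passed, 29 had every measured member level, and 38 had a median within 0.1 of 0. With 99% of all genes level, a list with every member level stands near the share of all genes. The median over all genes was 0.00. These lists were judged on the mean over both hours. At each hour the share of level probesets was lower, 85.5% at 0 h and 82.9% at 8 h, and it was 64.7% for 8 h minus 0 h. A level list therefore does not show that the vectors responded alike to TGFbeta.

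The machinery that packs the satellite repeats was level throughout, as 99% of all genes were. All 33 measured heterochromatin and pericentromere genes were level, from Atrx, a chromatin remodeller (-0.19), to Mis18a, a factor for loading the centromeric histone (0.13). Cbx5, Cbx1 and Cbx3, which encode the 3 HP1 proteins, differed by 0.03 ± 0.06, 0.03 ± 0.10 and 0.01 ± 0.07. Suv39h2, a methyltransferase of histone H3 lysine 9, differed by 0.00 ± 0.08, and the deacetylase gene Hdac1 by 0.09 ± 0.06. The 17 DNA methylation and Tet genes were all level, with the maintenance methyltransferase gene Dnmt1 and its recruiter Uhrf1 each at 0.01. So were the 27 RNA interference, piRNA and exosome genes, among them Dicer1 at -0.04 ± 0.07. Of the 16 genes whose values were to be given whatever they showed, 14 were measured and 2 were not analysed here. Read on the probeset with the highest mean of each gene, the 14 kept within 0.22 of 0 under each setting tried.

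The TGFbeta pathway and its targets were level between the vectors on the mean over both hours. For the immediate targets the median difference was -0.03 at 0 h and -0.09 at 8 h, and 0 of them passed for 8 h minus 0 h. All 30 measured TGFbeta and Smad immediate targets were level between vectors, with a median of -0.08, whereas 21 of the 30 rose and 4 fell with TGFbeta. Smad7, the feedback inhibitor, differed between vectors by -0.02 ± 0.07 and Id1, an inhibitor of helix-loop-helix factors, by 0.18 ± 0.06 (limma adjusted p = 0.865). The 31 ligands, receptors and Smads were all level between vectors, and with TGFbeta 9 rose and 3 fell at a median of 0.10; between vectors Smad3 differed by -0.12 and Bmpr2 by -0.18. All 16 EMT (epithelial-mesenchymal transition) transcription factors were level too. Snai1, which represses Cdh1, differed by 0.07 ± 0.07, Zeb1 by -0.09 ± 0.07 and Zeb2 by -0.17 ± 0.05 (limma adjusted p = 0.865 for Zeb2).

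Epithelial and mesenchymal genes were level with few exceptions. All 40 epithelial junction and identity genes were level, and Cdh1, which encodes E-cadherin, differed by -0.10 with an interval from -0.25 to 0.06. All 21 keratins and desmosome genes were level, with Krt19 at 0.21 and Perp at 0.23. Of 22 mesenchymal markers 21 were level, Vim (vimentin) at 0.00 ± 0.05 and Fn1 (fibronectin) at -0.16 ± 0.07. S100a4, a calcium-binding protein of motile cells, was 0.42 ± 0.11 higher, with pair differences of 0.25, 0.28, 0.32 and 0.82, and did not pass (limma adjusted p = 0.802). Timp3, an inhibitor of metalloproteinases, was the 1 collagen and matrix gene of 36 that was not level, 0.56 ± 0.14 higher with pair differences of 0.33, 1.07, 0.21 and 0.63 (limma adjusted p = 0.802). All 23 integrin, laminin and focal adhesion genes and all 29 actin cytoskeleton genes were level.

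Growth genes showed the same contrast. Of 34 DNA replication and G1/S genes, 33 were level between vectors, with a median of 0.08, while 30 of the 34 fell with TGFbeta at a median of -0.61. All 34 mitosis and kinetochore genes and all 19 cyclin, Myc and CDK inhibitor genes were level between vectors, against 15 and 7 that fell with TGFbeta. Core and linker histone genes were less settled, with 33 of 45 level, 0 passing and a median of 0.13. Their pair medians were 0.06 and 0.08 at 0 h and 0.02 and 0.29 at 8 h, and the list median was 0.06 without the 8 h pair of replicate 2. H2bc21 was 0.34 ± 0.08 higher and did not pass (limma adjusted p = 0.714).

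Stress, immune and metabolic lists were level. All 36 interferon and RNA sensing genes were, with a lowest value of -0.13 for Usp18, as were all 24 p53 and DNA damage genes, all 30 unfolded protein and integrated stress genes and all 21 heat shock and proteasome genes. Atf3, a stress-induced transcription factor, was lower in each pair, by 0.29 ± 0.06 on average, and did not pass (limma adjusted p = 0.531). All 20 cholesterol synthesis, 27 glycolysis and hypoxia, 23 oxidative phosphorylation and 26 detoxification genes were level, and 16 of the 26 detoxification genes fell with TGFbeta. All 35 Notch and Wnt genes and all 35 cytokine, chemokine and NF-kappaB genes were level. Of 33 growth factor ligands and receptors 32 were, with the receptor gene Erbb3 0.51 lower. Erbb3 did not pass (limma adjusted p = 0.865), and its difference ran from -0.84 to -0.18 over the other settings.

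Large gene families were level for the most part. Of 1027 olfactory receptor genes 1015 were level, of 163 vomeronasal receptor genes 161, of 83 Serpin, Spink and kallikrein genes all 83, and of 37 Hox genes all 37. Of 347 Zfp zinc finger genes 345 were level and 1, Zfp352, fell. Of 300 microRNA genes 293 and of 55 ribosomal protein genes 54 were level, and all 22 imprinted genes were. Small nucleolar RNA genes were less settled, with 30 of 55 level, 0 passing and a median of 0.18. Their pair medians were 0.04 and -0.04 at 0 h and 0.08 and 0.68 at 8 h, and without the 8 h pair of replicate 2 the list median was 0.04. That pair also had the widest spread over all probesets, an SD of 0.32 against 0.22 to 0.25 in the others.

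The list of 2-cell stage genes was the exception among the 41. Of 16 measured members 2 fell, Zfp352 and Tmem92, 0 rose, 7 moved in all 4 pairs and 5 were level, with a median of -0.71. A further 19 probesets listed a member beside other genes; 4 of them fell, 9 moved in all 4 pairs, and their median was -1.19. The list was drawn up with earlier results of these data known, so its counts are a description and no independent evidence. Tcstv3 was 0.61 ± 0.08 lower and Ubtfl1 0.55 ± 0.07 lower in the same direction in each pair, and neither passed (limma adjusted p = 0.152 and 0.15).

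**Figure D5:**
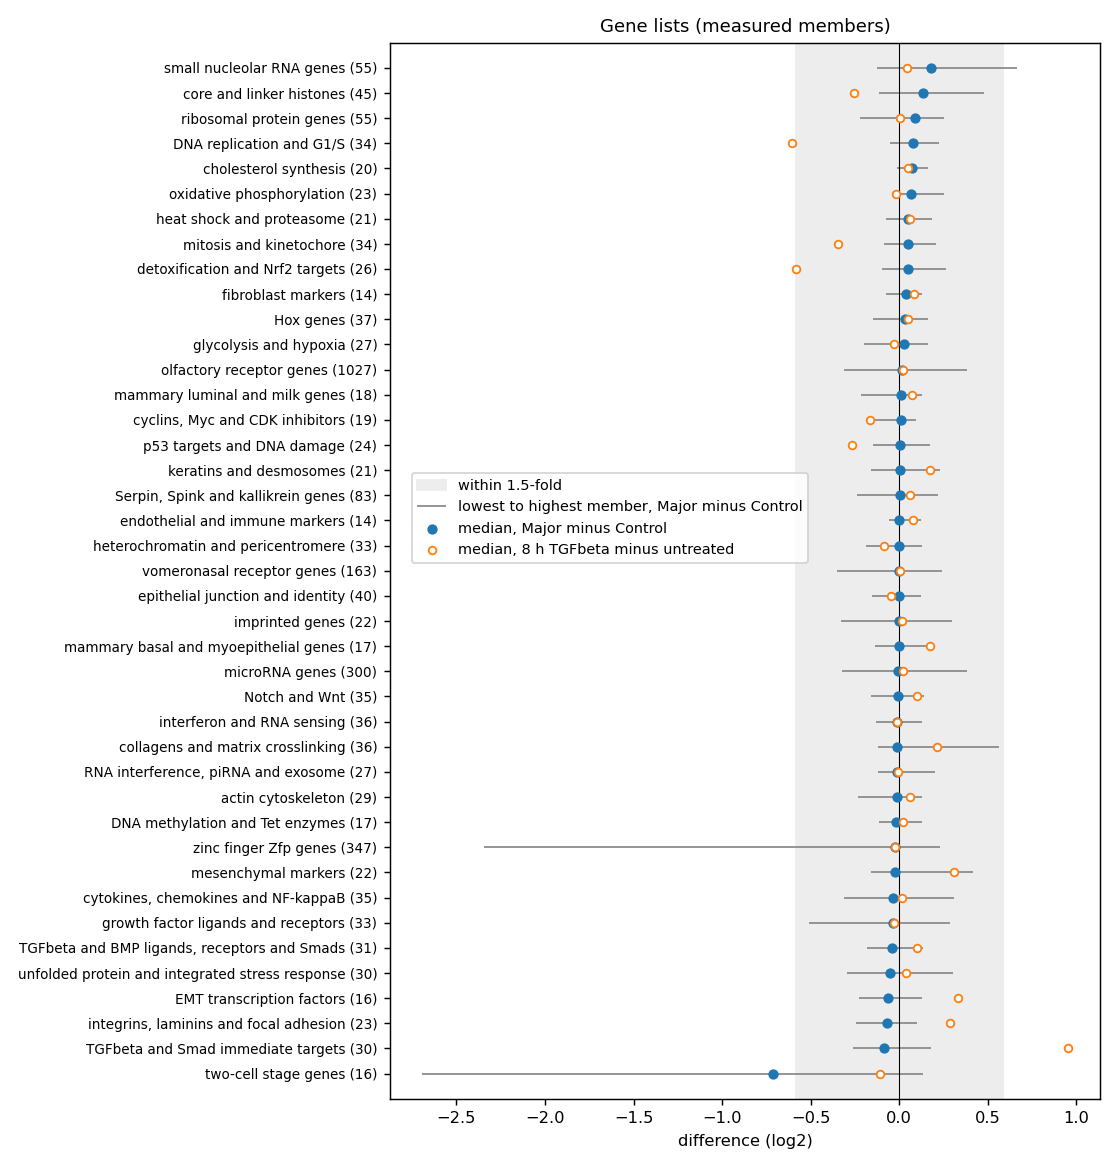
For each of the 41 gene lists (measured members in brackets), the filled point is the median Major minus Control difference, the grey line its lowest to highest member, and the open orange point the median change with 8 h of TGFbeta, all in log2 units; the grey band marks 1.5-fold. The filled points stay within 0.2 of 0 except for the 2-cell list at -0.71, while the TGFbeta medians reach 0.95 for the TGFbeta and Smad targets and -0.61 for the replication genes.

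Markers of the labelled cell type and of others did not separate the vectors. Of 10 epithelial markers all were measured and 6 read above the array median on every array, among them Krt8, Krt18 and Cdh1; Epcam, Cldn7 and Esrp1 read below it on every array. The mean of the 10 was 10.42 to 10.51 on the Control arrays and 10.41 to 10.49 on the Major arrays. The 7 fibroblast markers had means of 7.03 to 7.48 and 7.10 to 7.44, the 4 measured immune markers 7.25 to 7.62 and 7.29 to 7.62, and the 4 endothelial markers 6.52 to 6.92 and 6.57 to 7.01. On every array, 3 of the 7 fibroblast, 1 of the 4 immune and 0 of the 4 endothelial markers read above the array median. In each of the 4 sets 0 genes passed. Their part in the result was not tested. All 14 fibroblast and all 14 endothelial and immune genes of the longer lists were level, as were the 18 mammary luminal and 17 mammary basal genes.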

How the data were processed

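The deposited values are log2 expression values per probeset from Affymetrix gene arrays of total RNA (8 arrays, 34760 probesets, 2.98 to 14.75, 0 missing), in the range that RMA summaries have. The submitters' processing notes name RMA (robust multi-array average) and limma; what each did, its version and the annotation's build are not given in the sources used here. No detection calls were used, so low values may be at background, where folds are understated. The number of arrays limits the precision.

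Gene names came from the probe table of the platform, with symbols updated through RefSeq (GRCm38.p6), which also gave neighbours and promoters. All probesets entered 1 limma fit (version 3.58.1, R 4.3.3) per comparison, on the deposited values. The mean difference had the 4 pairs as a block (3 residual degrees of freedom), and the differences per hour and between hours had 4 group means and the replicate number. Tests were two-sided, adjusted by Benjamini-Hochberg over all 34760 probesets, and passed at 0.05. Errors are standard errors. An exact sign-flip test over 4 pairs cannot go below p = 0.125. The code was tested on simulated data.

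The title code was read as a mark shared by arrays made together. Deviations from the group mean correlated at 0.829 to 0.893 between arrays of the same number, across probesets.

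Named were up to 12 falls and 12 rises with 1 symbol, passing with 1 sign in all 4 pairs and filled up with probesets moved in all 4 pairs, up to 5 per direction with several symbols or none, up to 2 members per list by p, and 16 set genes; not all are printed. The comparison, members and lists were chosen with earlier results of these data known. Genes named besides were chosen after their values were seen, as were the motifs.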

Additional observations from a re-analysis of the deposited data

How the results depend on the processing

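The 60 probesets lower in all 4 pairs kept their sign under every alternative that gave them a value, 16 to 18 of the 18. That followed from how they were chosen, except with median centring and quantile normalization, which alone altered the values. The number of calls, which the choice did not fix, varied. Without the replicate block, 3 probesets fell for the mean difference, 2 at 0 h, 2 at 8 h and 462 changed for TGFbeta, and 69.47% of probesets were level. With the 0 h and 8 h arrays of a replicate averaged first, 5 fell, 4 of them among the 31. With probesets of 1 symbol only, 33 passed (28 lower, 5 higher), 12 fell at 0 h and 13 at 8 h, 20 moved in all 4 pairs and 99.32% were level; fewer probesets and a different prior variance enter that fit. Centring arrays on their median gave 35 calls, 1 of them a rise (probeset 10344336, adjusted p = 0.0474). The dim filter gave 40, quantile normalization 29, a variance trend 36 and the replicate block as 1 number term 33. Leaving out 1 array with its partner, or 1 replicate number, gave 4 to 48 calls for the mean difference, 66 to 239 probesets moved in all remaining pairs in either direction, a level share of 83.52% to 93%, and 1290 to 2884 calls for TGFbeta. At 0 h these were 0 to 7 calls and at 8 h 0 to 4. Fewer pairs loosen the rule on every pair by construction. The comparisons per hour could not be fitted without a whole replicate number, which leaves no residual degrees of freedom. For the other changes the cause was not tested.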
